A study of Mus musculus with 2 samples.

Results

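The core replication-dependent histone genes were examined by type in the liver of mouse embryos. They were chosen by name alone, as all protein-coding genes whose GENCODE M21 symbol places them in the Hist1, Hist2, Hist3 or Hist4 cluster and in the H2A, H2B, H3 or H4 type. The rule found 58 genes among 43346 annotated genes, of which 21474 were protein-coding. They comprise 18 H2A, 15 H2B, 12 H3 and 13 H4 genes. In all, 61 M21 genes carry such names, and Hist1h2bh, Hist1h2bm and Hist2h2bb were without a value under their own gene identifiers and are not analysed here as members.

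The series holds 1 group, whole liver of B6NCrl embryos aged 13.5 days, pooled from both sexes and with no treatment. The 2 biological replicates were each sequenced from 10 ng of total RNA above 200 nt with spike-in RNA added. The labels name 1 donor entry for both, so an SD (n = 2) describes these 2 tissue samples and may be partly technical. No contrast of conditions exists, and no p-value is given.

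Replication-dependent histone genes supply the histones that package newly copied DNA, and their transcripts accumulate in S phase. As a rule the transcripts carry no poly(A) tail. Typically they end shortly after a conserved stem-loop that the stem-loop binding protein, SLBP, holds from processing to translation. Some transcripts annotated in M21 run far past it, by 1643 nt in Hist3h2a and by 2445 nt in Hist4h4. Each nucleosome contains equal numbers of H2A, H2B, H3 and H4 molecules, and the genes for them lie in clusters of many near-identical copies. The fetal liver at this age is a dividing, blood-forming organ.

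The stem-loop is the signal that these RNAs share, and the forms below show how it differed between types. It was searched by name with a consensus pattern of 16 bases, kept where the 6-base arms around the 4-base loop paired fully. The pattern limits the base allowed at nearly every position, so bases common to all forms follow from the search, and other hairpins were not sought. Each line gives a site in the annotated M21 transcript, with the 16 bases in capitals and up to 5 flanking bases in lower case.
Hist1h2ap: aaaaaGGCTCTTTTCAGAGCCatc
Hist1h2bk: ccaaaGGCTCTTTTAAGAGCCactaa
Hist1h3g: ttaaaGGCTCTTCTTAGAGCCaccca
Hist1h4d: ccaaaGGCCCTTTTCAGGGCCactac
Hist1h4i: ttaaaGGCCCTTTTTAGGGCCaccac
Hist1h4b: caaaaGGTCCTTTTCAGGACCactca

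A stem-loop was found in the annotated transcripts of 40 of the 58 genes, in 8 forms. The form shown for Hist1h2ap was the most frequent, with 21 genes: 10 H2A, 6 H2B and 5 H3. The form of Hist1h4d was carried by 7 genes, all of them H4. The 12 H4 genes with a stem-loop used 4 forms and the 28 genes of other types used 4 forms, and 0 forms occurred in both sets. Of 21884 protein-coding genes outside the histone names, 6 (0.0274%) held a match to the consensus pattern anywhere in a transcript. The other 18 core genes had no match in their annotated transcript, and 10 of those transcripts run only from start codon to stop codon, so the search could not reach the end of the RNA.

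Promoter windows from RefSeq (GRCm38.p6, 250 bases before to 50 after the start) were matched for 53 of the 58 genes. Hist1h2bc, Hist1h3a, Hist1h3f, Hist2h2be and Hist2h4 had none. The motifs searched, on both strands, were CCAAT, the box that the factor NF-Y binds, TATAAA, a form of the TATA box, and the octamer ATTTGCAT, which Oct factors bind. None of the motifs contains another. The 150 bases before the RefSeq start, or for Hist1h2ap before the M21 start, which lies 32 bases further upstream, are shown for the highest H2A, H3 and H4 gene and for Hist1h2aa, a gene without a count, with the motifs in capitals and each sequence read on the strand of its gene.
Hist1h2ap, chr13:21833508-21833657, minus strand: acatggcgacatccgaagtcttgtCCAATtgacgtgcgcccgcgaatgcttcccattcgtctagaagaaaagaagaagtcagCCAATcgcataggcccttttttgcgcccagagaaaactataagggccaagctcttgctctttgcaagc
Hist1h3i, chr13:21783398-21783547, minus strand: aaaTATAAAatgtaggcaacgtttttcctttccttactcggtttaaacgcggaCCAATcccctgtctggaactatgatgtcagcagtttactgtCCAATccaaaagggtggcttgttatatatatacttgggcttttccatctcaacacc
Hist1h4d, chr13:23581418-23581567, plus strand: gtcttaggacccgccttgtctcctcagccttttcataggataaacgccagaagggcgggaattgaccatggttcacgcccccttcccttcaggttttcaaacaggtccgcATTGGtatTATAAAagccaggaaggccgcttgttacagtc
Hist1h2aa, chr13:23934287-23934436, plus strand: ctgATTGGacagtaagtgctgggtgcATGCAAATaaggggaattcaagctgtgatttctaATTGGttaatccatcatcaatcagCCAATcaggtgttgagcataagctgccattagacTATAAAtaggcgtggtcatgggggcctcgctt

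The CCAAT box separated H4 from the other types. It was present in the windows of all 18 H2A, all 13 matched H2B and all 10 matched H3 genes, but in 3 of 12 H4 genes (25.0%). Among all 27025 genes with a window, 41.1% held it. TATAAA was in 31 of the 53 windows (58.5%, against 15.7% of all genes), in each type. The octamer was in 12 (22.6%, against 1.97%), of which 7 belonged to H2A genes, 5 to H2B genes and 0 to H3 or H4 genes. Windows of H2A and H2B genes that start back to back overlap, so these counts are not independent. The motifs also occurred in genes with little RNA: the window of Hist1h2aa, in which no count was found, held 4 CCAAT boxes, 2 TATAAA and 1 octamer, and that of Hist1h2ap held 3 CCAAT boxes and neither other motif.

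**Figure D1:**
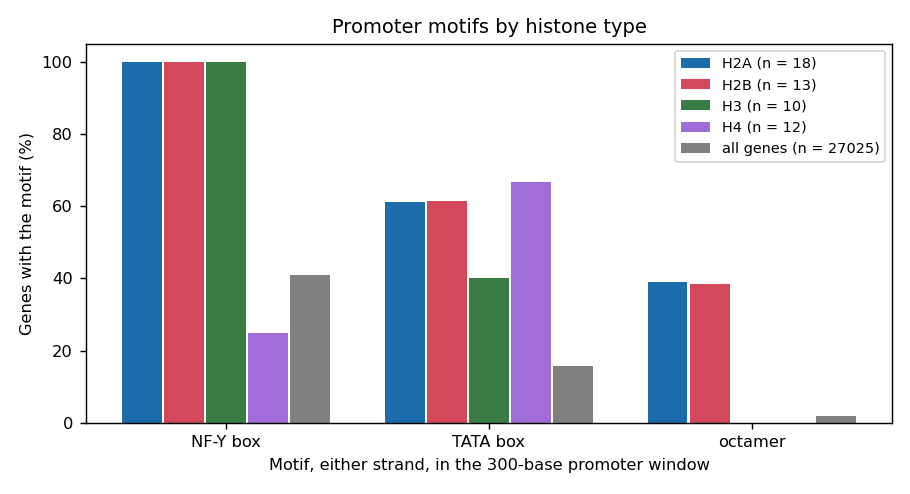
Share of genes (%, vertical axis) whose 300-base RefSeq promoter window holds the NF-Y box, the TATA box or the octamer named in the text on either strand, for the 4 histone types and for all genes. The NF-Y bar stands at 100% for H2A, H2B and H3 and at 25.0% for H4, and the octamer bar is at 0% for H3 and H4.

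The core genes together reached 6792 TPM in replicate 1 and 5771 TPM in replicate 2, where TPM is a relative abundance corrected for transcript length and library size. The sum was lower in replicate 2, and its mean of 6282 ± 722 TPM (SD, n = 2) was 0.644% ± 0.0678 of the TPM of all annotated genes. The genes drew 101680 and 77282 expected counts, out of 39644066 and 38150988 in the libraries. Markers of hepatoblasts (5 of 5 genes) and of red cells (5 of 5) were at 1 TPM or more in both libraries. So were those of macrophages, endothelium and mesenchyme (3 of 3 each), 2 of 3 heart markers and 52.1% of all protein-coding genes. The threshold therefore does not tell cell types apart. In such bulk RNA, fewer dividing cells and less histone RNA per cell cannot be told apart.

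H2A transcripts made up most of this RNA. H2A genes summed to 5489 and 4843 TPM, which was 82.4% ± 2.20 of the core total. H4 genes summed to 629 and 450 TPM (8.53% ± 1.04), H3 genes to 424 and 284 TPM (5.58% ± 0.939), and H2B genes to 250 and 194 TPM (3.52% ± 0.222). The order H2A, H4, H3, H2B held in both libraries on the TPM scale. In expected counts, without length correction, H3 and H2B held 5.61% and 5.55%, and in replicate 2 H2B stood above H3 (5.63% against 4.87%). H4 and H3 shares differed by more than the SD of either, and so did H3 and H2B in TPM.

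A single listed gene, Hist1h2ap, held most of the H2A sum, an assignment that depends on annotated transcript ends, as given below. Hist1h2ap (ENSMUSG00000094777.2, minus strand of chromosome 13, 21833026 to 21833507 of GRCm38) encodes a canonical H2A and was listed at 4871 and 4452 TPM. It was the rank 14 gene among all annotated genes by mean TPM and held 74.4% ± 3.84 of the core total. Without it, the 17 other H2A genes summed to 617 and 391 TPM, the shares became 33.4% for H4, 30.9% for H2A, 21.8% for H3 and 13.9% for H2B, and H4 stood above H2A in both libraries (32.8% and 34.1% against 32.1% and 29.6%). The log2 ratio of H2A plus H2B over H3 plus H4 went from 2.61 ± 0.24 to -0.30 ± 0.03. The ratio of H3 to H4, which Hist1h2ap does not enter, was 0.674 and 0.631.

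**Figure D2:**
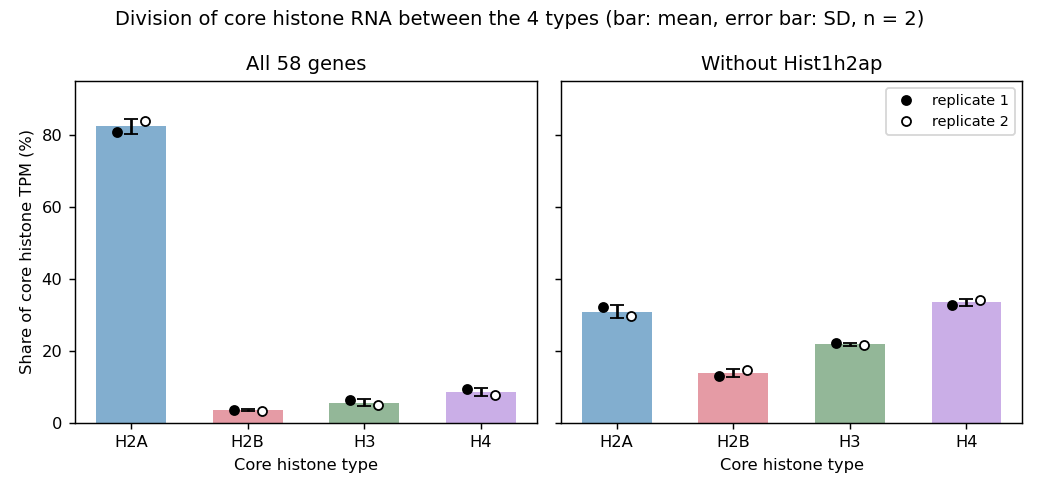
Share of the core histone TPM (%, vertical axis) in each type, for all 58 genes and without Hist1h2ap; bars are means, error bars the SD of 2 libraries, and points the libraries. H2A falls from 82.4% to 30.9% when the 1 gene is left out, and H4 is then highest.

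The value of Hist1h2ap rests on reads that nearly fit a second gene. Its 482-nt transcript and the 480-nt transcript of Hist1h2ao, another canonical H2A gene, share a run of 452 bases; 30 bases at the 5′ end belong to Hist1h2ap alone and 28 bases at the 3′ end to Hist1h2ao alone. The quantification gave 70656 and 57990 counts to Hist1h2ap and 52.1 and 19.5 to Hist1h2ao. The posterior SD, the authors' measure of uncertainty in dividing reads between genes, was 0.119% and 0.122% of the count for Hist1h2ap, but 67.3% and 123% for Hist1h2ao. The division between them therefore rests on the annotated ends, and RefSeq starts Hist1h2ap 32 bases inside the M21 start. The sum of both, 4875 and 4454 TPM, does not depend on the division and was 71.8% and 77.2% of the core total. Their promoter windows share a run of 200 bases, set off by 100.

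Most core genes were detected, over a wide range of levels. At least 1 TPM in both libraries was reached by 46 of the 58 genes (79.3%), while 52.1% of all protein-coding genes did so. At least 10 TPM was reached by 22 genes and at least 100 TPM by 5, limits at which no share over all genes was formed. The 10 highest genes held 94.0% ± 1.71 of the core TPM. By type, 15 of 18 H2A, 12 of 15 H2B, 10 of 12 H3 and 9 of 13 H4 genes were at 1 TPM or more in both.

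**Figure D3:**
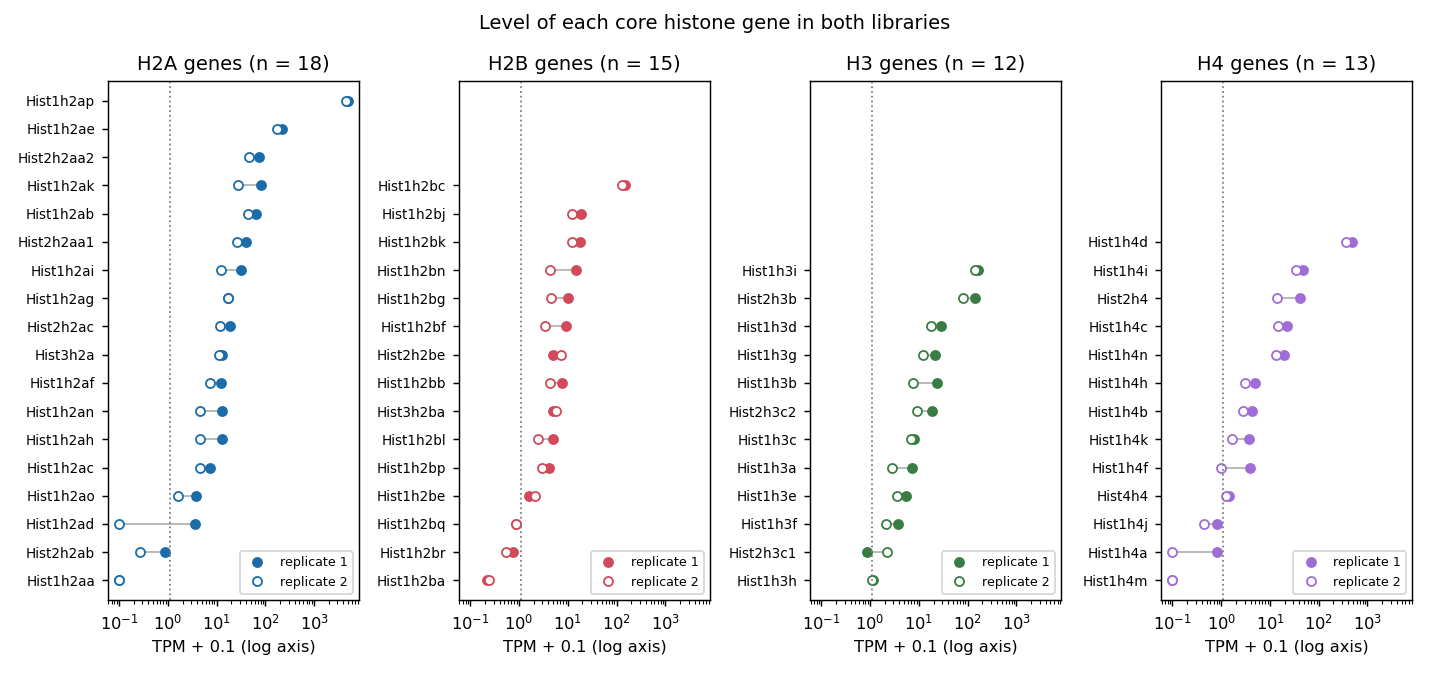
Level of each core histone gene in TPM plus 0.1 (horizontal log axis) in replicate 1 (filled) and replicate 2 (open), with genes ordered by mean within each type; the dotted line marks 1 TPM. Each type has a leading gene, Hist1h2ap at 4871 and 4452 TPM being the highest, and a tail below 20 TPM.

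The other H2A genes were far lower. Hist1h2ae, a canonical H2A gene of the same cluster, had 224 and 173 TPM. Hist2h2aa2 followed with 73.9 and 45.6 TPM, Hist1h2ak with 82.2 and 27.6 TPM, and Hist1h2ab with 64.3 and 44.8 TPM. These 3 genes were lower in replicate 2, and their ranges overlapped with one another, so their order is not beyond their spread. Hist3h2a, the H2A gene of the small Hist3 cluster, had 12.7 and 11.2 TPM. The remaining H2A genes at 1 TPM or more in both lay between Hist2h2aa1, at 39.4 and 25.8 TPM, and Hist1h2ao, at 3.61 and 1.51 TPM.

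In H2B, Hist1h2bc (ENSMUSG00000018102.4, plus strand of chromosome 13, 23684199 to 23692908) led with 151 and 133 TPM, or 64.4% ± 5.47 of the H2B sum. The next genes were Hist1h2bj at 18.3 and 12.1 TPM, Hist1h2bk at 17.8 and 12.1 TPM and Hist1h2bn at 14.3 and 4.14 TPM. Hist1h2bc lay far above them in both libraries, whereas the others overlapped. Hist1h2bg had 10.1 and 4.43 TPM. The other H2B genes at 1 TPM or more in both ran from Hist1h2bf, at 8.94 and 3.29 TPM, to Hist1h2be, at 1.48 and 2.04 TPM. Hist2h2be at 4.89 and 7.09 TPM, Hist3h2ba at 4.95 and 5.68 TPM and Hist1h2be were the only ones of these that were higher in replicate 2.

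H3 had 2 leading genes. Hist1h3i (ENSMUSG00000101972.1, chromosome 13, 21782960 to 21783370) had 165 and 141 TPM. Hist2h3b (ENSMUSG00000074403.2, chromosome 3, 96268654 to 96269141) had 142 and 79.5 TPM, and the ranges of the 2 genes overlapped. Hist1h3d at 28.0 and 17.2 TPM, Hist1h3g at 21.02 and 11.94 TPM and Hist1h3b at 23.0 and 7.51 TPM were lower in both libraries than either leader. The other H3 genes at 1 TPM or more in both ran from Hist2h3c2, at 18.9 and 8.93 TPM, to Hist1h3f, at 3.64 and 2.04 TPM.

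In H4, Hist1h4d (ENSMUSG00000061482.6, plus strand of chromosome 13, 23581598 to 23582735) had 482 and 365 TPM and held 78.9% ± 3.21 of the H4 sum. It shared no 100-nt window with another gene, and its posterior SD was 0.0188% and 0.0285% of the count. Its transcript is 393 nt long in the deposited tables and 1138 nt in M21, so its TPM depends on which end is used. Hist1h4i at 46.8 and 34.3 TPM, Hist2h4 at 40.3 and 13.6 TPM, Hist1h4c at 22.0 and 14.2 TPM and Hist1h4n at 19.2 and 13.1 TPM followed. Hist2h4 differed most between the libraries, and in replicate 2 it lay below Hist1h4c. The other H4 genes at 1 TPM or more in both ran from Hist1h4h at 4.82 and 3.0 TPM to Hist4h4.

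Almost all of the RNA came from the largest cluster. The 46 Hist1 genes, which span 2219 kb of chromosome 13, held 95.5% ± 1.13 of the core TPM, and the 9 Hist2 genes of chromosome 3, within 49.3 kb, held 4.18% ± 1.16. The highest Hist2 gene was Hist2h3b. Hist2 contributed unevenly to the types: its 3 H3 genes summed to 162 and 90.5 TPM beside 263 and 193 TPM from 9 Hist1 genes, whereas its 4 H2A genes summed to 133 and 83.1 TPM beside 5343 and 4749 TPM from 13 Hist1 genes. The 2 Hist3 genes held 0.276% and the single Hist4 gene, Hist4h4, held 0.0202% at 1.35 and 1.18 TPM. Hist4h4 was also the lowest gene to reach 1 TPM in both libraries, and Hist1h3h, at 1.02 and 0.97 TPM, lay just outside.

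In contrast, 8 of the 58 genes stayed below 1 TPM in both libraries. Hist1h2aa and Hist1h4m had 0 counts in both. The limit that 0 counts allow, 3 counts, is 0.272 and 0.303 TPM for the 390-nt transcript of Hist1h2aa and 0.261 and 0.291 TPM for the 402-nt transcript of Hist1h4m, for counting error only. Hist1h4m also shares 88.1% of its 100-nt windows with Hist1h4n, and the upper bound of its deposited interval, whose level is not stated, was 1.06 and 1.26 TPM. Hist1h2ba had 0.12 and 0.14 TPM, from 1.34 and 1.36 counts, and lies back to back with Hist1h2aa; both encode histones known from the testis. Hist2h2ab had 0.77 and 0.17 TPM, Hist1h4a had 0.73 and 0 TPM, and Hist1h4j had 0.70 and 0.35 TPM. Hist1h2bq, at 0.77 and 0.78 TPM, and Hist1h2br, at 0.66 and 0.45 TPM, are H2B copies with identical promoter windows, and short transcripts of both stand under other gene identifiers in the tables, so their gene values leave those reads out. With them, Hist1h2bq had 4.30 and 4.22 TPM and Hist1h2br had 10.7 and 5.32 TPM.

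A further 4 genes had 1 library on each side of 1 TPM, namely Hist1h3h, Hist1h2ad at 3.53 and 0 TPM, Hist1h4f at 3.71 and 0.87 TPM, and Hist2h3c1 at 0.78 and 2.07 TPM. Hist2h3c1 was the only one of them listed higher in replicate 2, with a posterior SD of 75.0% and 32.6% of the count. Another transcript of this gene, listed under a different identifier, had 1.23 and 0 TPM, and together they had 2.01 and 2.07 TPM, level between the libraries and above 1 TPM in both. The posterior mean of the gene entry alone was 1.16 and 1.08 TPM. Every 100-nt window of Hist2h3c1 also occurs in the overlapping transcript Gm20634.

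H2A and H2B genes often start back to back, and their RNA levels were unequal. There were 12 such pairs with 175 to 305 bp between the starts. The H2A gene had the higher mean in 8 pairs and the H2B gene in 4, of which the pair of Hist1h2aa and Hist1h2ba was near 0 counts. With transcripts listed under other gene identifiers added, Hist1h2bq came to 4.30 and 4.22 TPM, above Hist1h2ao at 3.61 and 1.51 TPM, and the tally became 7 to 5. In the pair of Hist1h2ae and Hist1h2bg, the H2A gene had 224 and 173 TPM and the H2B gene 10.1 and 4.43 TPM. In the pair of Hist1h2ac and Hist1h2bc the order was the other way round, with 7.27 and 4.45 TPM for the H2A gene and 151 and 133 TPM for the H2B gene. Hist1h2ag at 17.3 and 17.2 TPM and Hist1h2bj at 18.3 and 12.1 TPM overlapped. The pair of Hist1h2ap and Hist1h2br had the widest gap, and it would remain wide with the transcript Hist1h2br-202, listed elsewhere at 10.0 and 4.87 TPM.

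**Figure D4:**
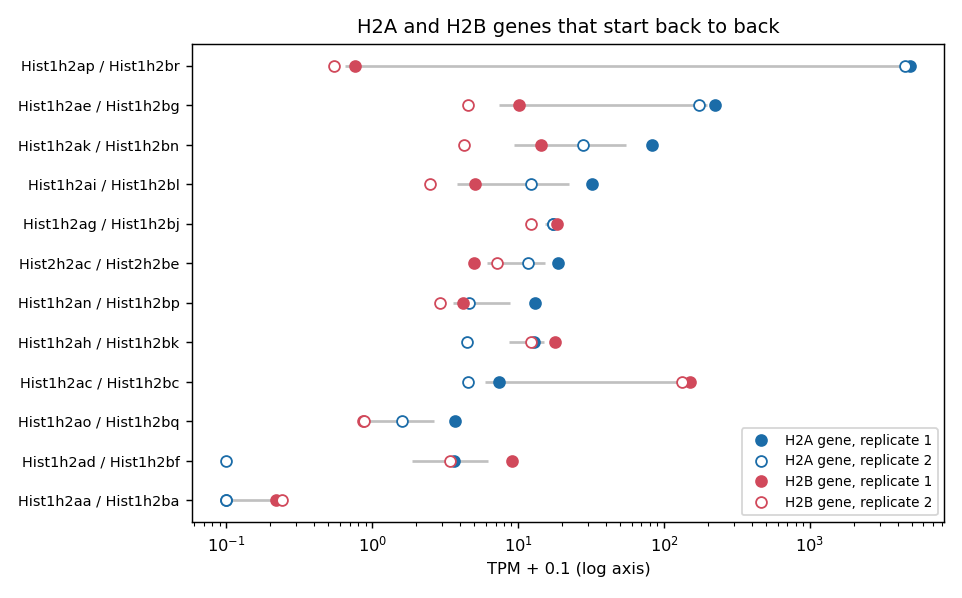
Levels of the H2A gene (blue) and the H2B gene (red) of the 12 pairs that start back to back, in TPM plus 0.1 (horizontal log axis), filled for replicate 1 and open for replicate 2; grey lines join the means. Hist1h2ap and Hist1h2bc stand far above the gene they start back to back with, the one an H2A and the other an H2B gene.

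Isoforms could be compared for few members, because most had a single transcript under their gene identifier. Among the genes with several transcripts, Hist1h2be drew 75.9% and 89.9% of its TPM from Hist1h2be-203, annotated as a processed transcript without coding status. Hist1h2bp drew 66.5% and 50.5% from Hist1h2bp-201, which ends 38 nt after the stem-loop. Hist1h2bq turned from Hist1h2bq-202 at 85.0% in replicate 1 to Hist1h2bq-203 at 61.2% in replicate 2, on 58.2 and 52.2 counts.

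The copies of histone genes limit how far reads can be told apart. A median of 43.4% of the 100-nt windows of a core transcript also occurred in another gene, with a range from 0% to 100%. Among the 27 genes that had 100 counts or more in each library, the posterior SD was above 10% of the count in 5, which shared 56.6% to 100% of their windows, while it was so in 0.518% of protein-coding genes. They were Hist2h2aa2 (6.88% and 10.1%), Hist2h2aa1 (11.3% and 15.5%), Hist1h2ai (11.9% and 28.7%), Hist1h2ag (14.4% and 15.1%) and Hist1h3b (5.47% and 10.9%). The first 4 encode H2A and the last H3.

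The core genes were lower in replicate 2 as a group. Ratios were formed from expected counts after TMM scaling, which brings the bulk of genes in both libraries to one level. Of the 27 genes with 100 counts in both, 17 were over 1.5-fold lower in replicate 2 (63.0%), against 0.482% of 11001 protein-coding genes, and 0 were over 1.5-fold higher, against 0.255%. In all, 25 of 27 were lower, against 47.5%. The median log2 ratio was -0.71 (0.611-fold) for the core genes and 0.01 for all protein-coding genes. Among the 56 core genes with any count, 51 were lower. No share over all protein-coding genes with any count was formed, so this number is a description only. Summed counts in replicate 2 were 0.579-fold those in replicate 1 for H4, 0.582-fold for H3, 0.782-fold for H2B and 0.795-fold for H2A. On the deposited TPM scale the medians were -0.56 and 0.16, and after scaling to spike-in totals they were -1.35 and -0.62. Each of these scalings shifts all genes of a library by about the same factor. The distance between core genes and all protein-coding genes, near 0.72, is therefore kept by construction, and only the level of both could move.

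Hist1h3b, an H3 gene, had 453 and 133 counts and the lowest log2 ratio, -1.77. Hist1h2ak, an H2A gene, had 916 and 276 counts (-1.73), and Hist2h4, an H4 gene, had 2334 and 710 counts (-1.72). These 3 differed by more than counting error, with exact 95% binomial intervals of the fold from 0.240 to 0.357, 0.262 to 0.345 and 0.279 to 0.331. The 3 highest ratios were those of Hist2h2be, with 467 and 608 counts (0.38), Hist1h2be, with 116 and 141 counts (0.28), and Hist1h2ag, with 253 and 226 counts (-0.16). Only the interval of Hist2h2be, 1.15 to 1.47, lay above 1, and with spike-in totals as the scale Hist2h2be and Hist1h2be were lower too (27 of 27). Hist1h2ap differed less than most, with a log2 ratio of -0.29.

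By type, medians were -0.98 for 6 H3 genes, -0.72 for 10 H2A genes, -0.65 for 6 H4 genes and -0.35 for 5 H2B genes, and the ranges of the 4 types overlapped. By cluster, 18 Hist1 genes had a median of -0.69 and 7 Hist2 genes a median of -0.85. Core genes with transcripts under 600 nt in the tables had a median of -0.76 (18 genes), those of 600 nt to under 2000 nt a median of -1.24 (5 genes) and those of 2000 nt or more a median of -0.03 (4 genes). All core genes of 600 nt or more together had a median of -0.35 (9 genes). Hist1h3b and Hist2h4 belong to the middle class. Genes with a stem-loop in the annotated transcript had a median of -0.71 and those without a median of -0.69. In a description limited to 306 other protein-coding genes with transcripts of 300 to 700 nt, the median was -0.17 and 87.9% were lower, so short transcripts in general were lower in replicate 2, by less than the core genes.

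**Figure D5:**
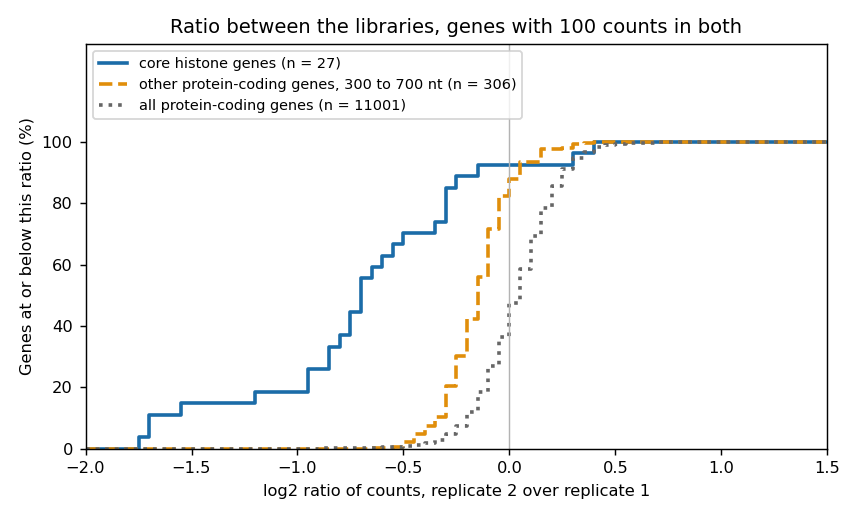
Cumulative share of genes (%, vertical axis) at or below each log2 ratio of replicate 2 over replicate 1 (horizontal axis), for 27 core histone genes, 306 other protein-coding genes with transcripts of 300 to 700 nt and 11001 protein-coding genes, each with 100 counts in both libraries. The core curve lies to the left, with a median of -0.71 against -0.17 and 0.01.

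Of 4 other RNAs without a poly(A) tail, chosen after their values were seen, 2 had over 100 counts in both libraries and both were lower in replicate 2. The 7SK RNA, Rn7sk, had 1228 and 600 counts (-1.03), and Rpph1, the RNA of ribonuclease P, had 778 and 400 counts (-0.96). The other two had too few counts to tell, with 15.8 and 13.9 counts for Rmrp (-0.17) and 5 and 7 for Terc (0.45). Spike-ins went the other way, with a median of 0.56, and took 1.16% and 1.88% of the counts. Heart markers, all 3 of 3, were over 1.5-fold higher in replicate 2 and summed to 27.3 and 74.3 TPM. Red cell markers were lower in replicate 2 in 5 of 5, with a median log2 ratio of -0.24 (from -0.31 to -0.06) on the scale of normalised counts, and a sum of 127844 and 113495 TPM. On the TPM scale 1 of the 5, Gata1, was higher in replicate 2, at 121.3 and 129.9 TPM. The part of RNA length, tail status, spike-in share, heart tissue and red cells in the difference was not tested.

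Other genes of the histone pathway lay closer to the bulk of genes by their medians. Over all protein-coding genes, 0.482% were over 1.5-fold lower and 0.255% higher. A count of 0 in the short lists here and below is near that share and does not set them apart. Of 16 S-phase genes, 0 were over 1.5-fold lower or higher, and their median log2 ratio was 0.02; Rrm2, a subunit of ribonucleotide reductase, had 527 and 634 TPM, Pcna, the DNA polymerase clamp, 332 and 360 TPM, and Mcm6, a part of the replicative helicase, 242 and 283 TPM. Of 17 histone chaperones, which carry histones to DNA, 0 moved past 1.5-fold in either direction, with a median of -0.01. The highest were Npm1 at 859 and 918 TPM, Rbbp4 at 259 and 302 TPM and Rbbp7 at 238 and 266 TPM.

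Of 25 genes for histone mRNA synthesis and processing, 24 had 100 counts in both, 0 of these moved past 1.5-fold, and the median was 0.08. Slbp, which encodes the stem-loop binding protein, was the highest at 292 and 356 TPM. It was followed by Srrt at 59.8 and 69.7 TPM and by the cap-binding gene Ncbp1 at 47.1 and 57.3 TPM. Npat, the coactivator of histone genes, had 7.19 and 9.91 TPM. Zfp473, whose product takes part in cutting the histone RNA end, was the lowest at 0.89 and 1.01 TPM. The genes for factors that bind the motifs above were detected: Nfya at 6.44 and 8.62 TPM, Nfyb at 32.5 and 38.9 TPM and Nfyc at 48.8 and 54.2 TPM for the CCAAT box, Pou2f1 at 3.90 and 4.89 TPM for the octamer, and Hinfp, an H4 promoter factor, at 6.55 and 6.88 TPM.

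Replication-independent histone genes, most of whose RNAs carry poly(A) tails, came close to the core genes in summed level. Whether RNAs with and without a tail were captured alike was not tested, and the comparison depends on it. The 9 listed genes summed to 4634 and 5202 TPM, so that the core genes exceeded them 1.47-fold and 1.11-fold. That excess rests on Hist1h2ap. Without it, the 57 other core genes summed to 1921 and 1319 TPM, below the 9 listed genes in both libraries. H3f3a, an H3.3 gene, had 1917 and 2213 TPM, H2afz, for H2A.Z, 1369 and 1556 TPM, and H3f3b, the other H3.3 gene, 693 and 772 TPM. Each of the 3 was higher than every core gene except Hist1h2ap. None of the 9 moved past 1.5-fold (0 of 9), and their median log2 ratio was -0.07.

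The linker histone genes, which encode H1, were low beside the core genes, with 241 and 242 TPM in sum over 8 genes. The core excess was 28.1-fold and 23.8-fold, most of it from Hist1h2ap. Without Hist1h2ap, the 57 other core genes summed to 1921 and 1319 TPM, still above the 8 linker genes. H1f0, which is not tied to replication, had 68.9 and 81.4 TPM, Hist1h1e 58.5 and 62.8 TPM, and Hist1h1c 63.3 and 52.7 TPM. The testis gene Hist1h1t had 0.08 and 0.09 TPM. Among the 5 linker genes with 100 counts in both libraries, 0 moved past 1.5-fold and the median log2 ratio was -0.17. Hist1h1a, a replication-dependent H1 gene with 151 and 80 counts, had a ratio of -0.91.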

How the data were processed

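The authors deposited a gene table and a transcript table for each library. The genome build was mm10 and the annotation GENCODE M4, per the readme the authors deposited. The sources used here name no aligner or quantifier. Expected counts are the authors' model-based estimates, per the file headers, which divide reads that fit several genes and carry a posterior SD. TPM values and the percent of a gene in each transcript were deposited by the authors. They do not say whether counting used strand.

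Symbols, types and coordinates came from GENCODE M21 (GRCm38), by gene ID. Levels are per library, with mean and SD over n = 2. Expected counts were rounded for TMM in edgeR 4.0.16 and size factors in DESeq2 1.42.0; ratios used a pseudocount of 0.5 and genes that had 100 counts or more in each library. On counts simulated for 11467 genes, the ratio step returned true log2 ratios of -1 and 1 as -1.03 and 1.01. It returned -0.5 and 0.5 as -0.56 and 0.55, somewhat too large in size. Counting intervals are exact 95% binomial intervals. Such intervals, and the floor of 3 counts, reflect counting error alone.

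Sequence matching and figures used Python 3.11.15. Named genes were the 5 highest of each type, genes below 1 TPM in both libraries or on either side of it, genes with a posterior SD above 10% at 100 counts, the 3 highest and 3 lowest ratios, genes whose leading transcript held under 90%, the highest gene of each cluster, and the 3 highest and the lowest genes of each list. Other names were chosen after their values were seen. The genes and lists were chosen with earlier results of these data known. Of the marker lists for other cells, macrophage, endothelium and mesenchyme (3 genes each) had median log2 ratios of -0.09, 0.21 and -0.07, and hepatoblast and red cell markers 0.07 and -0.24. Alternatives covered the unit, the estimator, filters, scaling and single libraries. FPKM columns were not used.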

Additional observations from a re-analysis of the deposited data

Results flagged for a closer look

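Transcripts that M21 assigns to core histone genes, but that stand under other gene identifiers in the deposited tables, carried signal that the sums by type leave out. Hist2h2bb-201, an H2B transcript, averaged 22.2 TPM (21.3 and 23.1), which would place it after Hist1h2bc among H2B genes. Hist1h2br-202 averaged 7.44 TPM and Hist1h2bq-201 averaged 3.49 TPM. With a transcript of Hist2h3c1, they amounted to 0.531% and 0.543% of the core TPM.

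Core-named entries that are not protein-coding also drew counts. Hist1h2aj, an H2A pseudogene, had 0 counts in replicate 1 and 119.6 in replicate 2 (0 and 13.9 TPM), with a posterior SD of 20.6 and 37.5 counts. The H2A genes Hist1h2ak, Hist1h2ai, Hist1h2an and Hist1h2ah had log2 ratios of -1.73, -1.56, -1.66 and -1.69 between the same libraries, and whether reads passed between them and Hist1h2aj was not tested. Hist1h2al had 11.5 and 13.9 counts, and Hist3h2bb-ps had 19.5 and 24.6 counts.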

How the results depend on the processing

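Of 94 alternative values over 14 results, 67 stayed within the spread between libraries, within 0.1 on the log2 scale, or within 1.5 times for a count. For the shares and the log2 ratio between types, either library alone always lies within that spread. Leaving out a library could therefore not move these results, and their unchanged values carry no weight. With expected counts in place of TPM, the core share of all genes was 0.233%, the H2B share 5.55% (H3 5.61%, and H2B above H3 in replicate 2), Hist1 92.3%, Hist2 6.46% and the 10 highest genes 92.1%; these have no length correction. Without genes with a posterior SD above 10% in either library, H2B held 3.06%, Hist1 96.9%, Hist2 2.82% and the 10 highest 97.2%. Adding the left-out entries and transcripts under other identifiers, an alternative chosen after seeing the data, gave H2B 4.05%.

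Leaving out Hist1h2ap, also chosen after seeing the data, gave a core share of 0.166%, with H2A 30.9%, H2B 13.9%, H3 21.8%, H4 33.4%, Hist1 82.6%, Hist2 16.2% and the 10 highest 78.8%; the log2 ratio of H2A plus H2B over H3 plus H4 turned to -0.30. At 10 TPM, 22 genes passed. With transcripts under other identifiers added, also chosen after seeing the data, the H2A gene was the higher in 7 of the 12 back-to-back pairs rather than 8. The count with a posterior SD above 10% was 25 of 50 at a minimum of 10 counts and 1 with a limit of 20%; with either library left out it was 6 to 8. The median ratio between libraries was -1.35 with spike-in totals, -0.56 with TPM and -0.54 relative to other genes of 300 to 700 nt, the last chosen after seeing the data. At a minimum of 10 counts, 36 of 50 genes were over 1.5-fold apart. For the counts of genes at 10 TPM, at a minimum of 10 counts and at a limit of 20%, no share over all genes was formed.

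No paired analysis was possible because the series has 1 group. Leaving out a library leaves no ratio between libraries. Depth limits genes under about 100 counts, and 15 of the 58 genes have another transcript length in M21 than in the tables, so their TPM rests on the older ends.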
